A study of Mus musculus with 24 samples.

Results

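The genes described here are 39 DNA repair and checkpoint genes measured by RNA sequencing of mouse ear skin. They were taken as the rows of the deposited count tables whose gene symbol, or whose Entrez gene where the symbol was missing, stood on a list of names. The list was chosen with earlier results of these data known, so the counts below describe these genes and do not test the pathways. All 39 were found, of 27180 rows in each table. By role they comprised 8 genes of the homologous recombination core, 5 break-sensing, end-resection and helicase genes, 8 Fanconi anaemia genes, 7 checkpoint genes, 2 mismatch repair genes, 5 base excision and single-strand break repair genes, 2 end-joining genes and 2 subunits of replication protein A.

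The study held 24 libraries in 8 groups of 3. Whole ear skin came from C57BL/6 mice (called C57) and from K14E7 mice (called E7) aged 8 weeks. K14E7 mice carry the HPV16 E7 oncogene behind the keratin 14 promoter, which is active in basal keratinocytes, so E7 is driven in the epithelium and not in the other cells of the skin. The other 18 libraries were donor ear skin of C57, K14E7 or CD1d-/- x K14E7 mice (labelled CD1dKOxE7) grafted on C57BL/6 recipients and taken at 14 or 28 dpg, days after grafting. All recipients were C57BL/6, so cells that entered a graft from the recipient carried neither the transgene nor the CD1d deletion, and every group labelled CD1dKOxE7 also carried E7. CD1d presents lipid antigens to natural killer T cells.

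Homologous recombination copies an intact sister chromatid to repair a double-strand break and therefore works after DNA has been replicated. The Fanconi anaemia proteins open up crosslinked DNA at stalled forks and hand the lesion to recombination. Mismatch repair removes replication errors, base excision repair replaces single damaged bases, and the ATM and ATR kinases with their mediators hold the cell cycle while repair proceeds. HPV E7 binds the retinoblastoma protein and releases E2F factors, which drive genes of S phase, many replication and repair genes among them.

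Stretches around E2F-type letters are shown because these genes moved together under E7 and the letters stood in a larger share of them than of all genes. The RefSeq promoter table (GRCm38.p6) held a window of 250 bases before to 50 bases after a transcript start for 32 of the 39 genes. A window counted as holding an E2F site when it contained TTTGGCGC, TTTGCCGC, TTTCGCGC or TTTCCCGC on either strand. Such letters stood in 8 of the 32 genes (25.0%), against 704 of 27025 genes of the table (2.6%). The genes of the table were taken whether or not they were expressed in skin, while every repair gene here was expressed. A share among expressed genes only was not computed. All 8 were among the 26 genes with a window that rose in E7 ear skin, and none of the 6 that did not pass there held them. The 8 stretches of 30 bases follow, 5′ to 3′ on the gene's own strand, with the matching letters in capitals (TTTCCCGC or TTTCGCGC, or their reverse complements GCGGGAAA and GCGCGAAA).
Brca2, chr5:150522442-150522471, plus strand: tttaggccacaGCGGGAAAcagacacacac
Bard1, chr1:71103163-71103192, minus strand: ccgccgctcagTTTCCCGCtcaggaagttt
Fancg, chr4:43010335-43010364, minus strand: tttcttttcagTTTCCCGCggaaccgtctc
Chek2, chr5:110839820-110839849, plus strand: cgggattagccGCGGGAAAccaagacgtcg
Topbp1, chr9:103305187-103305216, plus strand: ccgctcggttgGCGCGAAAgtcggttcccg
Clspn, chr4:126556990-126557019, plus strand: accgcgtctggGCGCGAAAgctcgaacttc
Lig1, chr7:13278841-13278870, plus strand: cgccaaagtgcGCGCGAAAtctgtgtggcg
Msh6, chr17:87975054-87975083, plus strand: ctcctcccgacTTTCCCGCcagcggcggcc

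In Brca2, Bard1, Fancg, Chek2 and Topbp1 the match lay between 209 and 52 bases before the transcript start of its window. In Clspn, Lig1 and Msh6 it began 22, 27 and 16 bases after that start. Lig1 had 3 windows in the table, and the letters stood only in the window shown. The CCAAT box, searched on both strands, stood in 20 of 32 genes (62.5%) against 41.1% of all genes. It stood in 61.5% of the genes that rose in ear and in 66.7% of those that did not pass. The cell-cycle homology region, searched as TTTGAA or TTCGAA on both strands, stood in 4 of 32 (12.5%) against 21.7%. Its shares were 11.5% of the genes that rose in ear and 16.7% of those that did not pass. For none of the motifs was the split by call tested. No searched motif overlaps another in its letters. These are letter matches and not measured binding sites.

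Library totals lay between 6550011 and 13814448 counts, and the 39 genes took 0.0679% to 0.164% of them. All 39 passed the low-count filter of each fit, and the lowest count of any of them in any library was 12. E7 counts were 0 to 2 in the C57 libraries and 141 to 594 in every library whose label names the transgene. Cd1d1, the gene behind CD1d, did not follow its label at 14 dpg: it stood at 13.6, 17.2 and 11.4 CPM (counts scaled to library size) in the 3 libraries labelled CD1dKOxE7 and at 15.2, 14.3 and 16.8 CPM in those labelled E7. At 28 dpg it stood at 5.33, 4.44 and 14.7 CPM against 25.8, 21.4 and 23.1 CPM. The labels do not say which exons were deleted. Recipient cells in a graft carried no CD1d deletion, and their part in the Cd1d1 counts was not tested. Directions below are therefore stated for the libraries labelled CD1dKOxE7. The library labelled CD1dKOxE7 at 28 dpg, replicate 3, stood apart from its group. Its counts differed from replicates 1 and 2 by a chi-square of 31.46 and 27.17 per gene, against 5.19 between those 2. It held 141 E7 counts against 405 and 340, and its 12 leukocyte markers summed to 794 CPM against 403 and 406 CPM. Results that rest on it are given with and without it. Keratinocyte markers were present in every library, at 21272 to 91690 CPM summed over 6 genes. The ear libraries shared a flow cell lane of their own, the C57 and E7 grafts shared another lane, and the CD1dKOxE7 grafts had a separate lane on the same flow cell as the other grafts, so tissue and flow cell, and the CD1dKOxE7 label and lane, cannot be told apart.

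Most of the repair and checkpoint genes stood higher in E7 than in C57 skin. In ear skin 32 of 39 rose and none fell, where 32.6% of all 15720 genes tested rose and 32.7% fell. In grafts at 14 dpg 29 rose and none fell (background 15.8% rose, 14.4% fell), and at 28 dpg 31 rose and 1 fell (20.7% and 14.7%). The median log2 fold change of the 39 was 1.33 in ear, 0.95 at 14 dpg and 1.25 at 28 dpg, against 0.00, -0.04 and 0.01 for all genes tested. A rise of at least 2-fold was called for 26, 18 and 21 of the 39, against 7.96%, 3.00% and 5.05% of all genes. Altogether 28 genes rose in each of the 3 comparisons, 5 in 1 or 2 of them, and 6 in none. In ear, at 14 dpg and at 28 dpg, 34, 33 and 31 of the 39 were higher in E7 without overlap, and 0, 1 and 2 lower. Of all genes 35.4%, 22.1% and 27.7% were higher without overlap and 35.7%, 25.1% and 25.5% lower, so groups without overlap were common. A call is an adjusted p under 0.05 in edgeR's quasi-likelihood test with Benjamini-Hochberg adjustment over all genes tested. Counts below at an unadjusted p, or in fits with other settings or libraries, have no share of all genes beside them unless one is printed. Without that share they are not read as particular to the repair genes. The labels do not say that the 3 libraries of a group came from separate animals, so the p-values measure the spread between these libraries. In bulk skin, fewer cells of a type and less RNA per cell cannot be told apart.

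**Figure D1:**
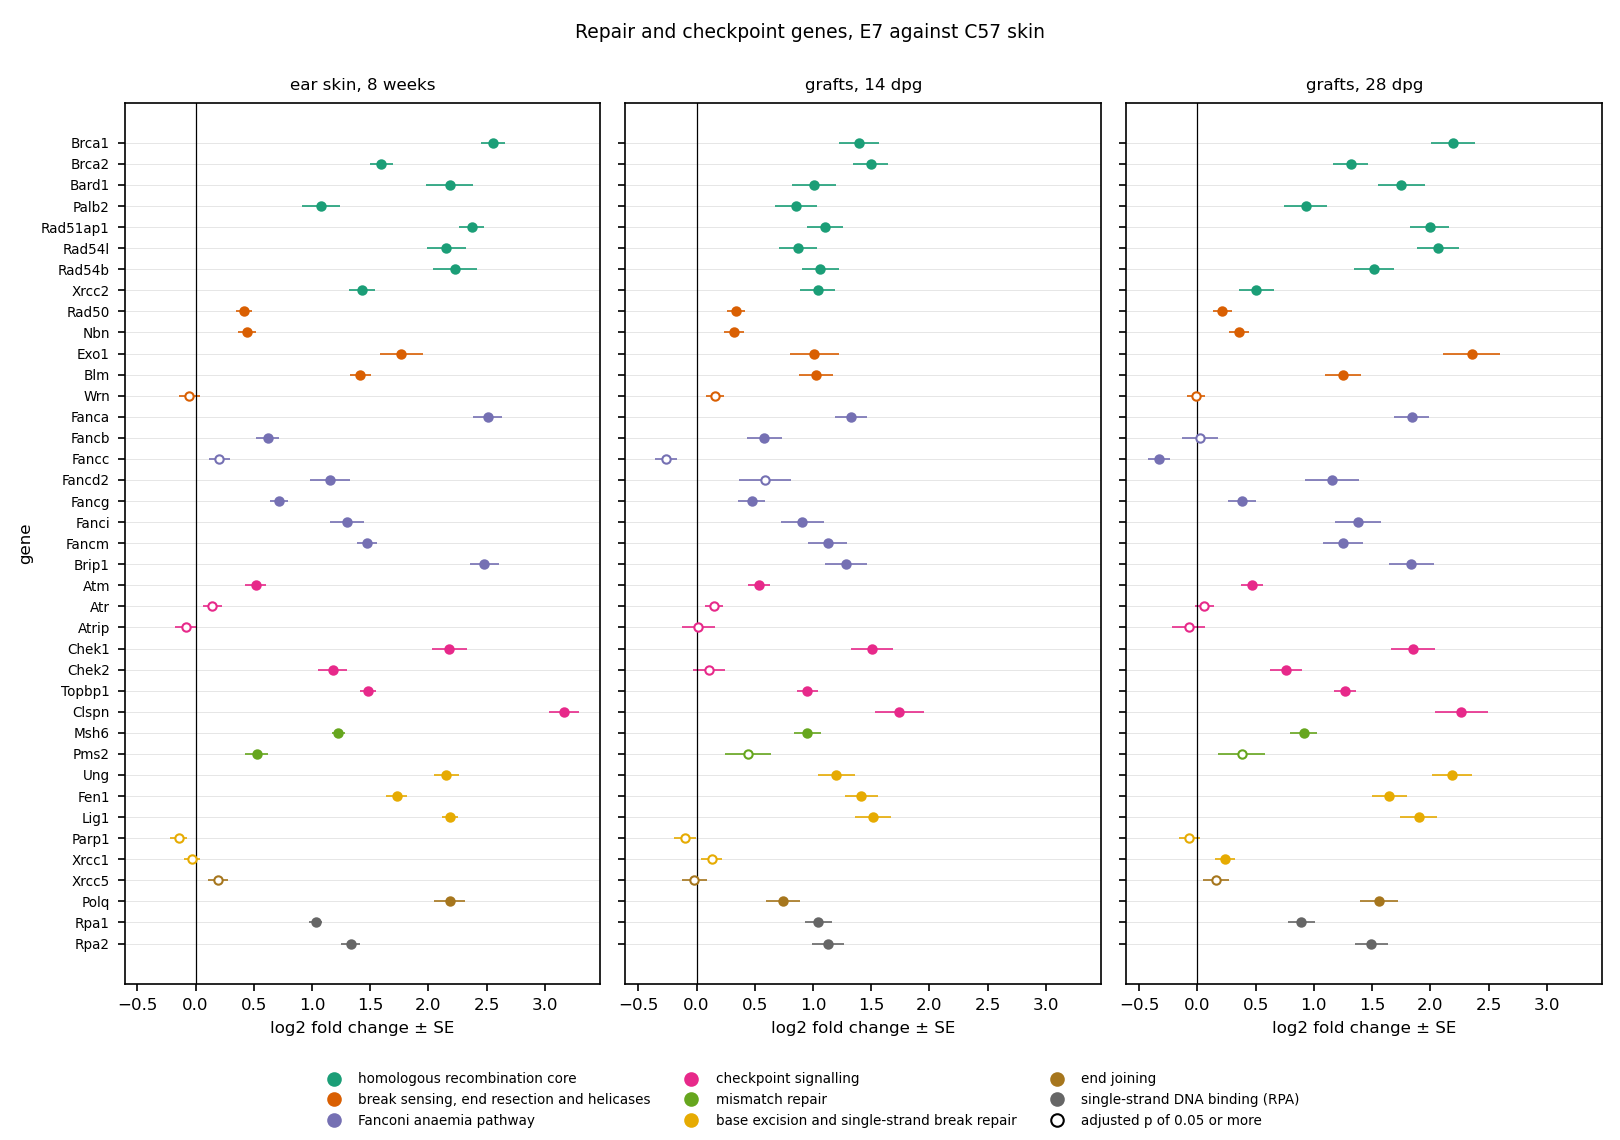
Log2 fold change (x axis, with its standard error) of each of the 39 genes (y axis) for E7 against C57 in ear skin, grafts at 14 dpg and grafts at 28 dpg, 3 libraries a group, coloured by role. Open points have an adjusted p of 0.05 or more. Points to the right of 0 are higher in E7, with medians of 1.33, 0.95 and 1.25, and the largest value is that of Clspn in ear, 3.16.

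The homologous recombination core rose as a whole. All 8 genes rose in each comparison of E7 with C57, where 32.6%, 15.8% and 20.7% of all genes rose. The median log2 fold changes of the 8 were 2.17 in ear, 1.05 at 14 dpg and 1.63 at 28 dpg. Brca1, the ubiquitin ligase subunit that promotes end resection (chr11:101488761-101551955 on GRCm38), changed most in ear. Brca1 stood at 6.86, 7.28 and 8.52 CPM in C57 ear and at 43.1, 47.3 and 43.3 CPM in E7 ear. The groups did not overlap, and the log2 fold change was 2.55 ± 0.10 (SE, n = 3 and 3, edgeR adjusted p = 9.15e-09). In grafts its values ran from 12.3 to 17.5 CPM in C57 and 35.3 to 40.6 CPM in E7 at 14 dpg, and from 5.55 to 7.55 CPM and 25.6 to 30.8 CPM at 28 dpg. The log2 fold changes in grafts were 1.39 ± 0.17 and 2.19 ± 0.19, with no overlap at either time.

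The other partners of this group followed at different sizes. Bard1, the partner of BRCA1 in the ligase, rose by 2.18 ± 0.20 on the log2 scale in ear. Rad51ap1, which stimulates strand pairing, rose by 2.37 ± 0.11, and the DNA translocases Rad54l and Rad54b by 2.15 ± 0.17 and 2.23 ± 0.19. Brca2, a mediator of strand exchange, rose by 1.60 ± 0.10 in ear, by 1.49 ± 0.15 at 14 dpg and by 1.32 ± 0.15 at 28 dpg. Brca2 was the largest of the core at 14 dpg, and Brca1 was the largest at 28 dpg. Palb2, which bridges BRCA1 and BRCA2, had the smallest rise of the core in ear (1.08 ± 0.16, 5.15, 6.15 and 5.88 CPM against 14.5, 9.94 and 11.9 CPM) and at 14 dpg (0.85 ± 0.18). Xrcc2, which assists strand exchange, had the smallest at 28 dpg: 0.51 ± 0.15, from 5.99, 6.29 and 5.44 CPM in C57 to 7.94, 8.73 and 8.24 CPM in E7. That Xrcc2 call missed the threshold under DESeq2 (adjusted p = 0.0518) and without C57 graft replicate 3 or E7 graft replicate 2 (0.0623 and 0.0534).

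Break sensing, resection and helicases were split. Exo1, the exonuclease of long-range resection and of mismatch repair, and Blm, the helicase mutated in Bloom syndrome, rose clearly, while the break sensors Rad50 and Nbn rose by little and the helicase Wrn did not pass. Exo1 stood at 2.61, 4.28 and 4.26 CPM in C57 ear and at 14.1, 12.8 and 11.5 CPM in E7 ear (log2 fold change 1.77 ± 0.18, adjusted p = 8.55e-06). At 28 dpg Exo1 had the largest difference of the 39 genes, 2.35 ± 0.25, from 1.97, 3.08 and 1.67 CPM to 12.4, 10.4 and 10.9 CPM. Exo1 and Blm rose in each of the 3 comparisons without overlap between the groups. Rad50 had the smallest rise of the group in ear (0.42 ± 0.07, from 34.7 to 37.5 CPM in C57 and 47.7 to 48.7 CPM in E7) and at 28 dpg (0.22 ± 0.08, adjusted p = 0.0418). The last call missed the threshold under RLE and upper quartile scaling, without the low-count filter, under DESeq2 and whenever a C57 or E7 graft of 28 dpg was left out (adjusted p 0.0717 to 0.139). Nbn rose by 0.44 ± 0.08, 0.32 ± 0.09 and 0.36 ± 0.09. The 14 dpg call of Nbn missed the threshold without C57 graft replicate 3 (adjusted p = 0.0579). Wrn differed by -0.05 ± 0.09, 0.16 ± 0.08 and -0.01 ± 0.08, with adjusted p of 0.623, 0.143 and 0.911.

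Most Fanconi anaemia genes rose. Of 8 genes, 7 rose in ear, 6 at 14 dpg and 6 at 28 dpg, where Fancc fell. The shares of all genes that rose were 32.6%, 15.8% and 20.7%, and 14.7% fell at 28 dpg. Fanca, a scaffold of the core complex (chr8:123266294-123318651), stood at 3.68, 4.65 and 4.67 CPM in C57 ear and at 23.7, 25.6 and 25.0 CPM in E7 ear. Its log2 fold change was 2.51 ± 0.12 (adjusted p = 3.08e-08), the largest of the group in ear, and 1.33 ± 0.14 and 1.84 ± 0.15 in grafts. No library of either genotype overlapped the other. Brip1, the helicase that binds BRCA1, followed closely with 2.48 ± 0.12 in ear, 1.28 ± 0.18 at 14 dpg and 1.84 ± 0.19 at 28 dpg.

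Fancm, the fork remodelling translocase that anchors the core complex, and Fanci, which is ubiquitinated with its partner FANCD2, rose in each comparison, Fancm by 1.47 ± 0.09, 1.13 ± 0.17 and 1.25 ± 0.17 and Fanci by 1.30 ± 0.15, 0.91 ± 0.18 and 1.38 ± 0.20. Fancd2 rose in ear (1.16 ± 0.17) and at 28 dpg (1.16 ± 0.23), but at 14 dpg its 0.59 ± 0.22 had an adjusted p of 0.0558. Fancg, a core complex subunit, had the smallest rise of the group at 14 dpg (0.47 ± 0.12) and at 28 dpg (0.38 ± 0.12, adjusted p = 0.0188, and 0.0634 to 0.0775 without C57 graft replicate 2 or 3 or E7 graft replicate 1 or 2).

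Fancb and Fancc, both core complex subunits, behaved differently from the rest and from each other. Fancb had the smallest rise of the group in ear, from 12.3, 12.2 and 11.9 CPM to 18.5, 17.7 and 19.6 CPM (0.62 ± 0.10), and rose at 14 dpg from 12.3, 10.9 and 11.7 CPM to 17.8, 17.3 and 16.8 CPM (0.58 ± 0.15). At 28 dpg the groups overlapped, with 11.5, 9.93 and 12.1 CPM in C57 and 9.18, 11.6 and 13.1 CPM in E7 (0.03 ± 0.16, adjusted p = 0.914). The sign of that value flips with the scaling. Fancc did not pass in ear (18.8, 19.2 and 18.5 CPM against 23.0, 21.5 and 20.5 CPM, 0.20 ± 0.09, adjusted p = 0.0652) or at 14 dpg (-0.26 ± 0.10, adjusted p = 0.0506). At 28 dpg Fancc fell by 0.33 on the log2 scale (SE 0.09, adjusted p = 0.014), from 24.9, 27.5 and 28.2 CPM to 21.6, 20.3 and 21.4 CPM. Without C57 graft replicate 3 or E7 graft replicate 2 the fall missed the threshold (adjusted p = 0.0554 and 0.0535).

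Among the checkpoint genes Clspn, Chek1, Topbp1 and Atm rose each time, Chek2 rose in ear and at 28 dpg, and Atr and Atrip did not pass. Of 7 genes, 5 rose in ear, 4 at 14 dpg and 5 at 28 dpg, against 32.6%, 15.8% and 20.7% of all genes. Clspn, the mediator claspin that brings CHEK1 to ATR at stalled forks (chr4:126556957-126594533), had the largest difference of all 39 genes in ear and at 14 dpg. It stood at 7.03, 9.98 and 10.5 CPM in C57 ear and at 76.7, 89.8 and 81.8 CPM in E7 ear, 8.95-fold higher (log2 fold change 3.16 ± 0.13, adjusted p = 2.22e-08). At 14 dpg it stood at 20.2, 17.7 and 15.5 CPM against 59.3, 62.3 and 55.2 CPM (1.74 ± 0.21). At 28 dpg it stood at 6.89, 11.6 and 9.34 CPM against 38.3, 49.0 and 43.2 CPM (2.27 ± 0.23). In none of the 3 did the groups overlap.

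Chek1, the effector kinase downstream of ATR, rose by 2.18 ± 0.15, 1.51 ± 0.18 and 1.85 ± 0.19, and Topbp1, the ATR activator, by 1.48 ± 0.07, 0.95 ± 0.09 and 1.27 ± 0.10. Atm, the kinase activated at double-strand breaks, had the smallest rise of the group each time: 0.52 ± 0.09, 0.53 ± 0.09 and 0.47 ± 0.09. Atr, the kinase activated at stalled forks, stood at 30.5 to 32.5 CPM in C57 ear and at 31.9 to 38.1 CPM in E7 ear, and its differences of 0.14 ± 0.09, 0.15 ± 0.08 and 0.06 ± 0.08 did not pass (adjusted p = 0.157, 0.155 and 0.596). Atrip, the subunit that recruits ATR to RPA-coated DNA, differed by -0.08 ± 0.10, 0.02 ± 0.14 and -0.07 ± 0.14, and did not pass either.

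Chek2, the effector kinase downstream of ATM, rose in ear and at 28 dpg but did not pass at 14 dpg. Chek2 stood at 5.72, 6.83 and 6.97 CPM in C57 ear and at 14.5, 14.0 and 15.7 CPM in E7 ear (1.18 ± 0.13, adjusted p = 1.13e-05). At 14 dpg the C57 grafts held 14.5, 14.2 and 15.3 CPM, a range that overlaps that of E7 ear. The E7 grafts held 15.9, 15.6 and 15.5 CPM, and the difference of 0.11 ± 0.14 did not pass (adjusted p = 0.58). At 28 dpg C57 grafts held 11.1, 8.25 and 10.5 CPM and E7 grafts 16.1, 18.2 and 15.9 CPM, and Chek2 rose by 0.76 ± 0.14.

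**Figure D2:**
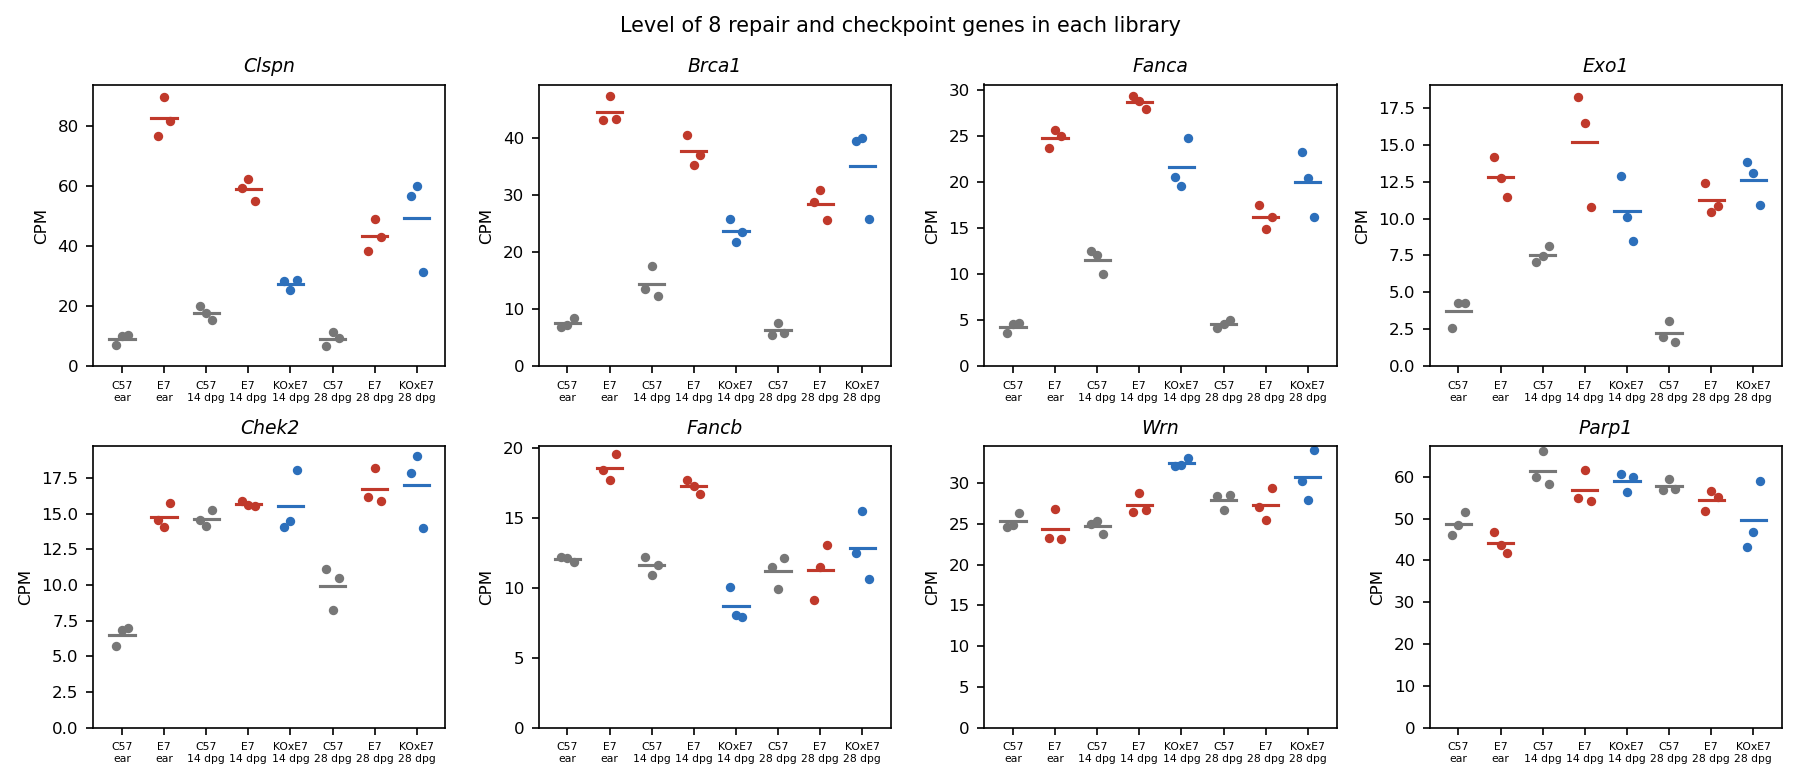
CPM (y axis, from 0) of 8 genes in each of the 24 libraries by group (x axis); points are libraries, bars are group means, grey is C57, red E7 and blue CD1dKOxE7 (KOxE7 on the axis). Clspn runs from 6.89 to 11.6 CPM in C57 grafts at 28 dpg and from 38.3 to 49.0 CPM in E7 grafts, while Wrn and Parp1 differ by little. Wrn was still higher in E7 without overlap at 14 dpg, and Parp1 lower without overlap at 28 dpg, neither past the threshold.

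Mismatch repair was represented by 2 genes that differed in size. Msh6, which recognises single-base mismatches, rose from 41.8, 43.5 and 44.8 CPM to 102, 102 and 101 CPM in ear (1.23 ± 0.06, adjusted p = 2.84e-08). Msh6 rose by 0.95 ± 0.11 at 14 dpg and by 0.91 ± 0.12 at 28 dpg, without overlap. Pms2, an endonuclease subunit, rose in ear by 0.52 ± 0.10, from 15.9, 14.4 and 14.7 CPM to 20.3, 21.5 and 22.9 CPM. In grafts Pms2 did not pass, with 0.44 ± 0.20 (adjusted p = 0.0965) and 0.38 ± 0.20 (adjusted p = 0.152).

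In base excision and single-strand break repair Lig1, Ung and Fen1 rose each time, Parp1 did not pass, and Xrcc1 rose at 28 dpg. Lig1, the ligase that seals Okazaki fragments (chr7:13277175-13311426), stood at 31.4, 35.0 and 36.5 CPM in C57 ear and at 155, 160 and 153 CPM in E7 ear. Its log2 fold change was 2.18 ± 0.07, with the smallest adjusted p of the 39 genes, 2.14e-09, and it was 1.51 ± 0.15 and 1.90 ± 0.16 in grafts. Ung, the uracil glycosylase, rose by 2.15 ± 0.11, 1.20 ± 0.16 and 2.18 ± 0.17. Fen1, the flap endonuclease, rose by 1.73 ± 0.09 in ear, the smallest of the group's rises there, by 1.42 ± 0.14 at 14 dpg and by 1.65 ± 0.15 at 28 dpg. Parp1, the sensor of strand breaks, stood at 46.1, 48.5 and 51.5 CPM in C57 ear and at 46.7, 43.8 and 41.7 CPM in E7 ear. The Parp1 differences of -0.14 ± 0.07, -0.10 ± 0.09 and -0.07 ± 0.09 did not pass. Xrcc1, the scaffold of single-strand break repair, differed by -0.03 ± 0.07 in ear and 0.13 ± 0.09 at 14 dpg, neither past the threshold. At 28 dpg Xrcc1 rose by 0.24 ± 0.09 (adjusted p = 0.0451), a call lost under RLE, upper quartile and DESeq2, without the filter, and without each of 5 of the 6 libraries in turn (adjusted p 0.058 to 0.139).

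Of the end-joining genes Polq rose each time and Xrcc5 did not pass. Polq, the polymerase of microhomology-mediated joining, rose from 3.68, 3.68 and 3.25 CPM to 15.4, 15.6 and 17.0 CPM in ear (2.18 ± 0.13), by 0.74 ± 0.15 at 14 dpg and by 1.56 ± 0.16 at 28 dpg. Xrcc5, the Ku80 subunit of classical end joining, differed by 0.19 ± 0.08, -0.02 ± 0.11 and 0.16 ± 0.11 and did not pass. Both subunits of replication protein A, which coats single-stranded DNA in replication and repair, rose each time, Rpa1 by 1.03 ± 0.06, 1.05 ± 0.11 and 0.89 ± 0.11 and Rpa2 by 1.33 ± 0.08, 1.13 ± 0.14 and 1.49 ± 0.14.

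Markers of other processes and cells moved with the same contrast. Of all genes tested 32.6% rose and 32.7% fell in ear, 15.8% and 14.4% at 14 dpg, and 20.7% and 14.7% at 28 dpg. All 16 genes of replication licensing and synthesis rose in each comparison of E7 with C57, with medians of 2.27, 1.57 and 1.90, and all 12 mitosis genes rose with medians of 2.78, 1.01 and 1.64. Summed over the 16 replication genes, C57 ear held 356 to 407 CPM and E7 ear 1936 to 1959 CPM. Of 6 keratinocyte markers 5 rose in ear, where their sum ran from 21272 to 23484 CPM in C57 and from 42257 to 48445 CPM in E7, and 2 rose at each graft time. All 6 fibroblast markers fell in ear (7986 to 8866 CPM in C57 against 2250 to 4395 CPM in E7), 4 fell at 14 dpg and 5 at 28 dpg. Endothelial (5 of 5), skeletal muscle (6 of 6), adipocyte (6 of 6) and cartilage markers (4 of 4 tested) also fell in ear, with sums of 153 to 169, 3332 to 6234, 571 to 784 and 346 to 385 CPM in C57 against 64.1 to 82.4, 1124 to 1705, 191 to 228 and 106 to 110 CPM in E7. In grafts 1 endothelial marker fell at 14 dpg and 5 at 28 dpg. No muscle, adipocyte or cartilage marker passed in grafts in edgeR, with 1 cartilage marker lower at 14 dpg and 5 muscle markers lower at 28 dpg at an unadjusted p under 0.05. Of 8 immediate early genes, which respond to tissue handling, 5 rose in ear (318 to 566 CPM in C57 against 1096 to 1141 CPM in E7), 4 at 14 dpg and 3 at 28 dpg. Apart from the cartilage gene Matn1, which was at 0 in all 6 ear libraries and in 9 grafts, no gene of these lists stood at 0 in any library. Their part in the repair gene results was not tested.

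**Figure D3:**
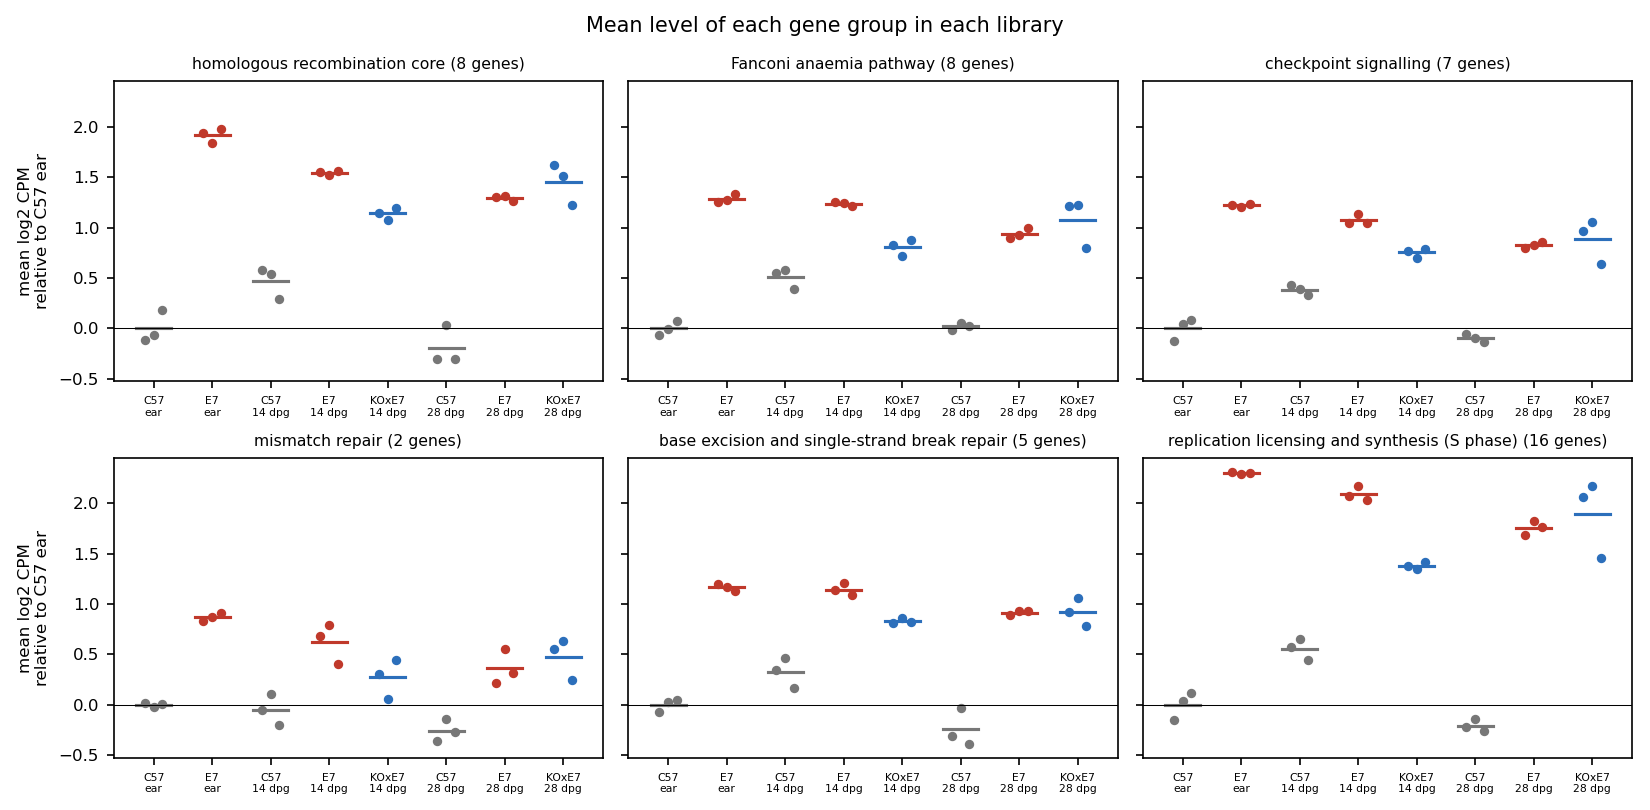
Mean log2 CPM of 6 gene groups in each library, relative to the mean of C57 ear (y axis), by group of libraries (x axis); points are libraries and bars are group means, grey for C57, red for E7 and blue for CD1dKOxE7 (KOxE7 on the axis). The homologous recombination core runs from 1.84 to 1.98 in E7 ear, from 1.53 to 1.56 in E7 grafts at 14 dpg and from 1.26 to 1.31 at 28 dpg, and the replication genes show the same order of these 3 E7 groups.

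The log2 fold change of E7 against C57 was compared between settings in 1 fit of all 24 libraries. It was lower at 14 dpg than in ear for 14 of the 39 genes and higher for none (8.61% of all genes had a lower and 4.02% a higher value). The differences between the effects were -1.45 ± 0.19 for Polq, -1.44 ± 0.28 for Clspn, -1.29 ± 0.23 for Rad54l, -1.28 ± 0.19 for Rad51ap1, -1.21 ± 0.23 for Brip1 and -1.19 ± 0.19 for Fanca (log2, edgeR adjusted p 5.07e-05 to 0.00228). The others were Brca1, Bard1, Rad54b, Fancc, Chek2, Topbp1, Ung and Lig1. For Fancc the value changed sign, from positive in ear to negative at both graft times, so it was not a smaller rise. At 28 dpg the value was lower than in ear for 3 genes, near the share of all genes (5.13% lower and 2.29% higher). These were Xrcc2 (-0.94 ± 0.18), Fanca (-0.69 ± 0.20) and Fancc (-0.55 ± 0.12). The Fanca call (adjusted p = 0.0408) missed the threshold under RLE, upper quartile and DESeq2, without the filter, and without each of the 12 libraries in turn (adjusted p 0.0518 to 0.107). Between 28 and 14 dpg no gene's E7 effect differed at the threshold in edgeR, where 0.167% of all genes did (0.148% higher and 0.0185% lower). At an unadjusted p under 0.05, 10 were higher and 2 lower at 28 dpg, and DESeq2 called 3. The smallest p-values belonged to Rad54l (1.20 ± 0.24, adjusted p = 0.0712), Ung (0.99 ± 0.23) and Exo1 (1.34 ± 0.33).

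Grafts were also compared with ear skin within each genotype. Between ear and 14 dpg, 17 genes rose in C57 skin and 4 fell (background 30.6% and 22.0%). The largest were Rad54l (1.67 ± 0.17, from 1.95 to 2.71 CPM in ear to 5.72 to 8.97 CPM in grafts), Polq (1.43 ± 0.15), Fanca (1.40 ± 0.14), Chek2 (1.17 ± 0.13), Exo1 (1.01 ± 0.23) and Brip1 (0.95 ± 0.18). Brca2, Xrcc2, Xrcc5 and Rpa1 fell. In E7 skin 3 genes rose and 12 fell over the same step (21.9% and 21.3%), and the largest falls were Xrcc2 (-1.17 ± 0.12, from 23.2 to 26.5 CPM to 10.1 to 11.4 CPM), Bard1 (-0.65 ± 0.19), Brca2 (-0.52 ± 0.13), Clspn (-0.49 ± 0.18), Xrcc5 (-0.48 ± 0.10) and Topbp1 (-0.44 ± 0.09). The Clspn call missed the threshold under upper quartile scaling and without any 1 of the 3 E7 ear libraries or E7 graft replicates 1 or 3 (adjusted p 0.053 to 0.135). The C57 and E7 steps share no library, but tissue and flow cell cannot be told apart in either.

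From 14 to 28 dpg many repair genes fell in C57 grafts. Here 20 genes fell and none rose (background 14.2% fell, 8.40% rose), with a median of -0.54 against -0.03 for all genes. Exo1 fell most, by 1.75 on the log2 scale (SE 0.25, adjusted p = 0.00028), from 7.07, 7.44 and 8.11 CPM to 1.97, 3.08 and 1.67 CPM. Fanca fell by 1.32 (SE 0.16), Polq by 1.30 (SE 0.17), Brca1 by 1.19 (SE 0.19), Rad54l by 1.19 (SE 0.19) and Ung by 1.11 (SE 0.18). Over all 39 genes, 24 were lower in every graft of 28 dpg than in any of 14 dpg, against 26.0% of all genes. Beside them, 14 of 16 replication genes and 12 of 12 mitosis genes fell; their part was not tested.

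In E7 grafts 7 genes fell from 14 to 28 dpg and none rose (9.48% fell, 7.68% rose). These were Fanca (-0.80 ± 0.13, from 29.3, 28.8 and 27.9 CPM to 17.5, 14.9 and 16.2 CPM), Fancb (-0.60 ± 0.15), Fen1 (-0.58 ± 0.14), Polq (-0.48 ± 0.15), Atr (-0.31 ± 0.08), Topbp1 (-0.30 ± 0.09) and Atm (-0.30 ± 0.09). The count was 4 without the low-count filter, 12 when the 2 groups were fitted alone, and 3, 3, 2 and 3 without E7 graft replicates 1 and 2 of 14 dpg and replicates 1 and 2 of 28 dpg. Fanca and Fen1 kept their calls in each of these alternatives except the limit of 2-fold, and Fancb, Polq, Atr and Topbp1 lost theirs in 2 or more. Atm was not followed singly. The counts without the filter and without each of these libraries leave no place for it, so its call was lost there too.

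Against ear skin, C57 grafts at 28 dpg had 4 genes higher and 14 lower (21.3% and 18.0%), led by Exo1 (-0.75 ± 0.26), Fen1 (-0.64 ± 0.14), Xrcc2 (-0.63 ± 0.13), Chek2 (0.62 ± 0.14), Fanci (-0.57 ± 0.19) and Rpa2 (-0.56 ± 0.13). Exo1 missed the threshold without the ear library C57_8wks_286 or C57_8wks_287 or graft replicate 1 or 3 (adjusted p 0.0953 to 0.119), and Fanci without C57_8wks_287 or graft replicate 3 (0.136 and 0.147). E7 grafts at 28 dpg had 3 higher and 26 lower than E7 ear (23.8% and 24.2%), led by Xrcc2 (-1.56 ± 0.13), Clspn (-0.93 ± 0.19), Bard1 (-0.81 ± 0.20), Lig1 (-0.78 ± 0.13), Brca2 (-0.78 ± 0.13) and Fancm (-0.78 ± 0.14). Rad54l, Parp1 and Xrcc1 were the 3 that rose in E7 grafts over ear, at both times.

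At 14 dpg the repair genes stood lower in grafts labelled CD1dKOxE7 than in E7 grafts. Of 39 genes 21 fell and 1, Wrn, rose (background 14.8% fell, 15.1% rose), with a median of -0.38 against -0.03 for all genes. By role, 5 of 8 recombination genes, 2 of 5 resection and helicase genes, 5 of 8 Fanconi genes, 3 of 7 checkpoint genes, 1 of 2 mismatch genes, 3 of 5 base excision genes, 0 of 2 end-joining genes and 2 of 2 RPA subunits fell. Clspn fell by 1.11 (SE 0.20, adjusted p = 0.000762), from 59.3, 62.3 and 55.2 CPM in E7 to 28.5, 25.5 and 28.7 CPM. Those values still lay above the C57 grafts. Fancb fell by 0.99 (SE 0.15, adjusted p = 0.000175), from 17.8, 17.3 and 16.8 CPM to 10.1, 8.09 and 7.93 CPM, which is below every C57 graft of that time. Fancm fell by 0.85 (SE 0.16), Brca2 by 0.68 (SE 0.14), Brca1 by 0.68 (SE 0.16) and Xrcc2 by 0.67 (SE 0.14). Wrn rose by 0.23 ± 0.08 (adjusted p = 0.0345), from 26.5, 28.8 and 26.6 CPM to 32.0, 32.2 and 33.0 CPM. No gene rose in this comparison with DESeq2 or when the 2 groups were fitted alone. Without E7 graft replicate 1, or without replicate 2, 14 genes were called in place of 22. The share of all genes called in those fits is not given here.

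Other markers differed between these groups as well, where 15.1% of all genes rose and 14.8% fell. Of 12 leukocyte markers 11 were tested and 9 rose, with their sum at 250 to 382 CPM in E7 grafts and 1514 to 2018 CPM in those labelled CD1dKOxE7, and Ly6g was at 0 in all 3 E7 grafts. Of 6 keratinocyte markers 1 rose and 2 fell, with sums of 51358 to 91690 CPM against 23875 to 36681 CPM. All 16 replication genes and 5 of 12 mitosis genes fell. The E7 transgene itself stood at 33.8, 40.6 and 38.6 CPM in E7 grafts and at 20.4, 17.6 and 23.5 CPM in those labelled CD1dKOxE7, without overlap. The part of these in the repair gene result was not tested.

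Against C57 grafts of 14 dpg, those labelled CD1dKOxE7 had 23 genes higher and 2 lower (background 19.1% and 20.1%). The largest rises were Chek1 (0.97 ± 0.18), Lig1 (0.96 ± 0.15), Fen1 (0.93 ± 0.14), Fanca (0.91 ± 0.14), Ung (0.82 ± 0.16) and Bard1 (0.82 ± 0.19), and Fancb (-0.41 ± 0.16, adjusted p = 0.0492) and Fancc (-0.29 ± 0.09, adjusted p = 0.0247) fell. Neither fall was called with DESeq2 or when the 2 groups were fitted alone.

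**Figure D4:**
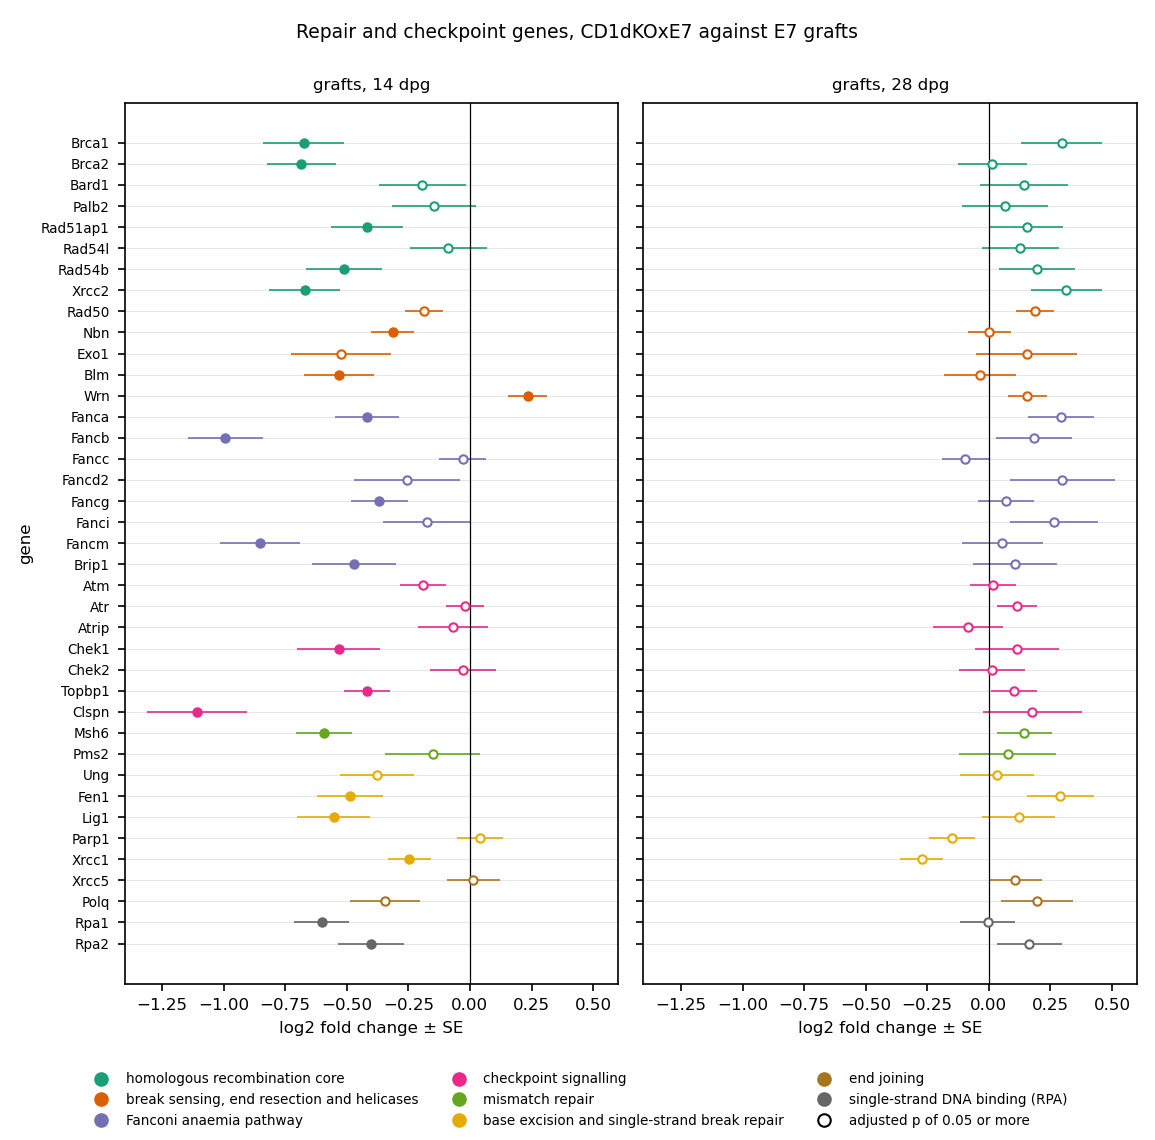
Log2 fold change (x axis, with its standard error) of each of the 39 genes (y axis) for grafts labelled CD1dKOxE7 against E7 grafts at 14 and 28 dpg, 3 libraries a group, coloured by role. Open points have an adjusted p of 0.05 or more. At 14 dpg most points lie left of 0 with a median of -0.38, and at 28 dpg all points are open with a median of 0.12.

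At 28 dpg no gene differed between CD1dKOxE7-labelled and E7 grafts in edgeR, where 0.210% of all genes did (0.0741% higher and 0.136% lower). At an unadjusted p under 0.05, 4 were higher and 1 lower, and DESeq2 called 0. The smallest p-values belonged to Xrcc1 (-0.27 ± 0.09, adjusted p = 0.204), Rad50 (0.19 ± 0.08) and Xrcc2 (0.31 ± 0.14). Without CD1dKOxE7 graft replicate 3 the count was still 0, with 15 at an unadjusted p under 0.05 and a median of 0.22, where 1.85% of all genes were called. Clspn shows the spread: 38.3, 49.0 and 43.2 CPM in E7 and 56.8, 60.0 and 31.5 CPM in the CD1dKOxE7-labelled grafts, of which 31.5 is replicate 3. The E7 transgene stood at 25.4, 34.1 and 27.1 CPM against 44.1, 44.4 and 18.8 CPM, again with replicate 3 lowest. Against C57 grafts of 28 dpg 30 genes rose and 1, Fancc, fell (26.8% and 22.6%). The largest were Exo1 (2.51 ± 0.24), Brca1 (2.49 ± 0.19), Clspn (2.44 ± 0.23), Ung (2.22 ± 0.17), Rad54l (2.20 ± 0.18) and Rad51ap1 (2.15 ± 0.17). Without replicate 3, 30 rose and 2, Fancc and Parp1, fell (51.0% of all genes called in either direction).

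In the CD1dKOxE7-labelled grafts some repair genes rose with time. From 14 to 28 dpg 11 genes rose and none fell (background 10.8% rose, 11.8% fell): Clspn (0.86 ± 0.20), Xrcc2 (0.61 ± 0.14), Msh6 (0.58 ± 0.11), Brca1 (0.58 ± 0.16), Fancb (0.58 ± 0.16), Rpa2 (0.49 ± 0.13), Brca2, Rad50, Nbn, Fancg and Rpa1. The count of 11 depended on the libraries, and among the fits with a library left out a share of all genes is given only without replicate 3 of 28 dpg. Without replicate 3 of 28 dpg 19 rose and 1, Parp1, fell (31.3% of all genes called), without replicates 1 or 2 of 28 dpg 5 and 3 were called, and without replicates 2 or 3 of 14 dpg 6 and 5. Fitted with those 6 libraries alone, edgeR called 0 (adjusted p 0.0559 for Msh6 to 0.112 for Rpa2 among the 6 genes given with values), with 13 higher and 0 lower at an unadjusted p under 0.05. Beside them 10 of 16 replication genes rose, 0 of 12 mitosis genes passed, and 6 of 11 leukocyte markers fell; their part was not tested.

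The difference between the CD1dKOxE7 and E7 labels itself changed between the times. It was higher at 28 than at 14 dpg for 14 genes and lower for none (background 6.54% higher, 6.31% lower): Clspn (1.28 ± 0.28), Fancb (1.18 ± 0.22), Xrcc2 (0.98 ± 0.20), Brca1 (0.97 ± 0.23), Fancm (0.91 ± 0.23), Fen1 (0.78 ± 0.19), Brca2, Rad54b, Rad50, Fanca, Topbp1, Msh6, Lig1 and Rpa1. Without replicate 3 of the CD1dKOxE7 grafts of 28 dpg 23 were higher and 1, Parp1, lower (24.1% of all genes called). Without its replicates 1 or 2 the count was 6 each time, without replicate 2 of the CD1dKOxE7 grafts of 14 dpg 8, and without E7 graft replicate 1 of 14 dpg or replicate 2 of 28 dpg 9. For these last fits no share of all genes is given. The Fancm value missed the threshold when the 4 groups were fitted alone and without replicate 2 of 14 dpg or replicates 1 or 2 of 28 dpg of the CD1dKOxE7 grafts (adjusted p 0.0506 to 0.0576). Fancb in these grafts lay below every C57 graft at 14 dpg, and at 28 dpg at 12.5, 15.5 and 10.7 CPM against 11.5, 9.93 and 12.1 CPM, where the overlap rested on replicate 3 (10.7 CPM). Without replicate 3 the Fancb difference from C57 at 28 dpg was 0.33 ± 0.16 (adjusted p = 0.0873) and did not pass.

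A list of 80 other genes of the same pathways was tested in the same fits. In ear 36 rose and 9 fell, at 14 dpg 25 rose and 2 fell, and at 28 dpg 29 rose and 3 fell, with medians of 0.18, 0.08 and 0.21. Of all genes 32.6% rose and 32.7% fell in ear, 15.8% and 14.4% at 14 dpg, and 20.7% and 14.7% at 28 dpg, and several of the shorter lists lay near those shares. In other homologous recombination 8, 7 and 7 of 16 rose. Fignl1, an ATPase of homologous recombination, rose by 2.53 ± 0.10, 1.64 ± 0.17 and 2.51 ± 0.19. The resection factor Rbbp8 and the break-response mediator Trp53bp1 fell in ear, by 0.39 (SE 0.08) and 0.43 (SE 0.07). In other Fanconi genes 6, 5 and 5 of 10 rose, with the ligase Rfwd3 at 1.43 ± 0.07 in ear. In other checkpoint genes 7, 7 and 9 of 11 rose, with Timeless, the fork protection factor, at 0.92 ± 0.11 and 1.25 ± 0.11 in grafts. Of 5 other mismatch genes 2, 1 and 1 rose, and of 15 other base excision genes 6, 3 and 3 rose, with Neil2 lower at 14 dpg (-1.05 ± 0.33) and Aptx lower at 28 dpg (-0.47 ± 0.09). Of 8 other end-joining genes 3, 1 and 3 rose and none fell.

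Nucleotide excision repair, which removes ultraviolet lesions and has no member among the 39, had counts near or below the shares of all genes. Of 15 genes 4 rose and 3 fell in ear, 1 rose and 1 fell at 14 dpg, and 1 rose and 2 fell at 28 dpg. The shares of all genes that rose and fell were 32.6% and 32.7% in ear, 15.8% and 14.4% at 14 dpg, and 20.7% and 14.7% at 28 dpg. The medians of the 15 were 0.00, -0.01 and 0.09. Xpc, the damage sensor of the global branch, fell each time: 63.0, 60.8 and 66.5 CPM in C57 ear against 39.2, 43.4 and 31.6 CPM in E7 ear (-0.74 ± 0.10, adjusted p = 8.95e-05), then -0.40 ± 0.09 at 14 dpg and -0.53 ± 0.09 at 28 dpg. In no comparison did its groups overlap. Uvssa, of the transcription-coupled branch, fell at 28 dpg (-0.41 ± 0.09). Side by side in ear, where 32.6% of all genes rose, the members and the other genes of each pathway that rose were 8 of 8 and 8 of 16 in homologous recombination, 7 of 8 and 6 of 10 in the Fanconi pathway, 2 of 2 and 2 of 5 in mismatch repair, and 3 of 5 and 6 of 15 in base excision repair. For nucleotide excision repair it was 4 of 15. The difference between these shares was not tested, and the members and the other lists were chosen with earlier results of these data known.

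Per kilobase of exon, the order of the 39 genes changed between genotypes. In C57 ear the highest levels were those of Xrcc1 (16.9 ± 0.52 CPM per kb, SD, n = 3), Topbp1 (15.1 ± 1.1), Rpa2 (12.6 ± 0.88) and Parp1 (12.6 ± 0.70), of which the last 2 did not differ beyond their spread. In E7 ear they were Lig1 (44.3 ± 1.1), Topbp1 (42.2 ± 2.3) and Rpa2 (31.8 ± 1.8), with Lig1 and Topbp1 within their spread of each other. The lowest were Polq (0.413 ± 0.029) and Exo1 (0.477 ± 0.12) in C57 ear, and Exo1 (1.64 ± 0.17) and Polq (1.87 ± 0.11) in E7 ear. Clspn moved from 26th to 9th of 39 (1.83 ± 0.38 to 16.5 ± 1.3 CPM per kb), while Parp1 moved from the fourth to 14th place.

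Reads of overlapping genes limit some of these values, since whether the counting used strand is not given in the sources used here. In GENCODE M21, 11 of the 39 genes share exon bases with a gene on the opposite strand, among them Fen1 (1908 bases), Fancm (572), Fanci (398), Fancd2 (256), Fanca (250) and Lig1 (217), and 4 share them with a gene on the same strand, of which Rad54b shares 2068 with Fsbp.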

How the data were processed

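Gene counts were deposited by the authors as 1 table per library, with 27180 rows each, for 24 libraries of total RNA from ear skin or grafted ear skin. Per the submitters' processing notes, bcl2fastq 1.8.4 (ear), FastQC (grafts), Trimmomatic and mm10 were used. The aligner, the counter, the annotation and the use of strand are not given in the sources used here. The members and gene lists were chosen with earlier results of these data known.

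Groups were taken from the labels. Counts were tested with edgeR 4.0.16 (R 4.3.3): filterByExpr with a minimum count of 10 and a minimum total of 15, TMM scaling, robust quasi-likelihood fits, and Benjamini-Hochberg adjustment over all genes tested. Ear comparisons used 6 libraries (15720 genes), graft comparisons 18 (16189 genes) and comparisons of grafts with ear all 24 (16612 genes). The standard error is the log2 fold change divided by the root of the F statistic. CPM is the count scaled by the TMM library size, set over all 24 libraries. The code was tested on simulated data.

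In comparisons of E7 with C57 the text names, for each role, the genes past the threshold with the largest and smallest change, all that fell and all that did not pass. In other comparisons it names up to 6 past the threshold, or the 3 with the smallest p where none passed. Among other repair genes it names the 3 rising and 3 falling with the smallest adjusted p, of which some are not reported here. Other genes were added for their role. Alternatives were RLE and upper quartile scaling, no filter, a filter of 1 CPM reached by 3 or more libraries, the DESeq2 1.42.0 test, a limit of 1 on the log2 fold change, a replicate block, other sets of libraries in the fit, and each library left out.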

Additional observations from a re-analysis of the deposited data

Results flagged for a closer look

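The log2 fold change of E7 against C57 was tested for a difference between settings (edgeR, adjusted p under 0.05). It was lower at 14 dpg than in ear for 14 repair and checkpoint genes, where 8.61% of all genes were lower. The log2 differences of the 6 largest were -1.45 for Polq, -1.44 for Clspn, -1.29 for Rad54l, -1.28 for Rad51ap1, -1.21 for Brip1 and -1.19 for Fanca. At 28 dpg 3 genes had a lower value than in ear, near the share of all genes (5.13%): Xrcc2 (-0.94), Fanca (-0.69) and Fancc (-0.55). Fancc changed sign and was not a smaller rise. The Fanca call was lost under RLE, upper quartile and DESeq2, without the filter, and without each of the 12 libraries in turn. The difference between grafts labelled CD1dKOxE7 and E7 was higher at 28 than at 14 dpg for 14 genes (6.54% of all genes). The largest were Clspn (1.28), Fancb (1.18), Xrcc2 (0.98), Brca1 (0.97), Fancm (0.91) and Fen1 (0.78). With 1 library left out, 6 to 24 genes were called. Tissue and flow cell, and the CD1dKOxE7 label and lane, cannot be told apart in these tests.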

How the results depend on the processing

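With a limit of 1 on the log2 fold change, E7 against C57 called 18 genes at 14 dpg and 21 at 28 dpg. Under that limit CD1dKOxE7 at 14 dpg called 1 gene against E7 and 0 against C57, the step from 14 to 28 dpg 7 in C57, 0 in E7 and 0 in CD1dKOxE7, and grafts against ear 5 and 0 in C57 and 1 and 1 in E7. The difference of E7 effects between 28 dpg and ear then had 0 genes and that of CD1dKOxE7 effects 2. Without the low-count filter the E7 step from 14 to 28 dpg had 4 genes. Fitted with only the groups compared, it had 12, the CD1dKOxE7 step 0 and the CD1dKOxE7 effect 9. The difference of E7 effects between 28 and 14 dpg had 3 genes with DESeq2 and 2 with all 24 libraries in the fit. Leaving out 1 library gave 14 to 20 genes for CD1dKOxE7 against E7 at 14 dpg, 2 to 6 for the E7 step, 3 to 20 for the CD1dKOxE7 step, 0 to 1 for the difference of E7 effects and 6 to 24 for that of CD1dKOxE7 effects. Beyond the construction of the fold limit and the smaller sets of libraries, the cause was not tested. Shares of all genes called under these settings are not given in this section, so the counts do not show changes particular to the repair genes.

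Values that changed sign lay near 0 and were not called. With 1 library left out, Atrip ranged from -0.0513 to 0.0948 and Xrcc5 from -0.0646 to 0.0627 at 14 dpg, and at 28 dpg Wrn ranged from -0.0636 to 0.0353, Fancb from -0.0942 to 0.1549, Atr from -0.0083 to 0.1176 and Atrip from -0.184 to 0.0085. Upper quartile scaling gave -0.0030 for Atrip at 14 dpg, -0.0019 for Atr and -0.0357 for Fancb at 28 dpg. Fancb was -0.0052 with RLE, -0.0156 without the filter and -0.0067 with DESeq2. Upper quartile scaling moved the median of all genes by -0.12 in ear.

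With a replicate block the graft comparisons of E7 with C57 had 30 and 32 genes, those of CD1dKOxE7 with E7 22 and 0 and with C57 24 and 31, the steps from 14 to 28 dpg 20, 7 and 11, and the differences of effects 0 and 15. Deviations of same-numbered grafts correlated by -0.349 to 0.294 over 45 pairs, against -0.38 to 0.465 over 90 pairs with different numbers, so the numbers were not taken to pair the samples. The lowest count of 12 limits precision for the rarest genes.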
